A study of Mus musculus with 12 samples.

Results

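The microRNAs described here are miR-99a, miR-99b and miR-100, with every arm of their hairpins that was assayed, and miR-125a-5p and miR-125b-5p, which are encoded in the same clusters. They were chosen by name, though with earlier results of these data known. They make up 7 of the 504 microRNA assays: mmu-miR-99a-5p, mmu-miR-100-5p, mmu-miR-100-3p, mmu-miR-99b-5p, mmu-miR-99b-3p, mmu-miR-125a-5p and mmu-miR-125b-5p, written below without the species prefix. Levels were measured by quantitative RT-PCR in epididymal fat, a visceral depot, of male C57BL/6J mice. The 3 exposed groups met a high-fat diet (45% of energy as fat, 35% as carbohydrate, 20% as protein). Mice of every group were taken at 23 weeks. In WL the high-fat exposure began at mating and lasted until then, in UL it began at mating and ended at weaning, and in UT it was in utero, through the dam. The control group CD met a diet with 10% of energy as fat, 70% as carbohydrate and 20% as protein, and the diet of UT and UL mice outside these windows is not stated in the labels. The labels give no genotype beyond the strain, and 12 mice per group were profiled as 3 pools, so a value is that of a pool and not of a mouse. Each pool mixes the cells of whole fat, in which fewer cells of a type and less RNA per cell cannot be told apart.

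A microRNA pairs with messenger RNAs mainly through its seed, bases 2 to 8, and lowers their translation and stability. The miR-99 and miR-100 family is known for repressing the kinase mTOR and its partner Raptor, and also the receptor Igf1r. The miR-125 family is the vertebrate form of worm lin-4, and miR-125b is known for repressing Lin28 and several pro-apoptotic messages. Vertebrate genomes carry these families side by side with let-7, in polycistrons whose members can be cut from a shared primary transcript. In mesenchymal cells and fat these guide strands belong to the abundant microRNAs.

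The mature sequences below are from RefSeq on GRCm38.p6, written 5′ to 3′ with the seed in capitals, and all 7 assays were matched by name. The first lines show how little separates the assays that the comparisons set side by side.
miR-99a-5p: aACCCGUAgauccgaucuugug
miR-100-5p: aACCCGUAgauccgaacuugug
miR-99b-5p: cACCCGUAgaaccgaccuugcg
miR-125b-5p: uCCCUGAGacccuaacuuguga
miR-125a-5p: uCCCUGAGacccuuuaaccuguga
miR-351-5p: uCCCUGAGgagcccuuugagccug
miR-99b-3p: cAAGCUCGugucuguggguccg
miR-100-3p: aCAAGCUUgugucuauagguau

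Counted from the 5′ end, miR-99a-5p and miR-100-5p differ at 1 base, U16A with the base of miR-99a-5p first. MiR-99a-5p and miR-99b-5p differ at 4 bases, A1C, U11A, U16C and U21C, none of them in the seed. MiR-125b-5p has 22 bases and miR-125a-5p 24, and they share their first 13 bases. The sources used here do not give the specificity of the assays, and how far an assay for miR-99a-5p also reads miR-100-5p was not tested. Of the 393 assays with a sequence at hand, the seed ACCCGUA was held by miR-99a-5p, miR-100-5p and miR-99b-5p only. The seed CCCUGAG was held by miR-125a-5p, miR-125b-5p and miR-351-5p, an X-linked microRNA outside these clusters.

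The hairpins lie in 3 clusters (GRCm38.p6, plus strand). Mir99a is at chr16:77598936-77599000, with Mirlet7c-1 656 bases and Mir125b-2 47272 bases downstream. In this annotation no host gene spans Mir99a, and the long noncoding RNA Mir99ahg ends 40507 bases before it. Mir100 is at chr9:41531425-41531504, with Mirlet7a-2 5211 bases and Mir125b-1 50421 bases downstream, and these 3 lie within the long noncoding RNA gene Mir100hg (chr9:41376526-41615185). Mir99b is at chr17:17830188-17830257, with Mirlet7e 94 bases and Mir125a 554 bases downstream, within the span of the protein-coding gene Spaca6. Exon and intron limits were not analysed here. The mature sequence of miR-125b-5p is the same from Mir125b-1 on chromosome 9 and Mir125b-2 on chromosome 16, so its level sums over 2 clusters. The Mir100 hairpin carries 2 of the assayed arms, shown here in capitals because their levels lie so far apart.
Mir100: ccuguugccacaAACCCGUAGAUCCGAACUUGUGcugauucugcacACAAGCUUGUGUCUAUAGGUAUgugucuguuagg

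The deposited values are threshold cycles (Ct), in which a lower Ct stands for more template. Each Ct was subtracted from the mean Ct of its pool over the 466 microRNAs measured in all 12 pools. This relative level is in cycles on the log2 scale, and higher means earlier than the average microRNA of that pool. Median Ct per pool ranged from 24.62 to 25.29, and 490 to 504 microRNAs were measured per pool. The pools UT 2 and WL 3 stood apart on the first principal component, which held 25.9% of the variance, and the results below were recomputed without each pool and without these 2 together. Pool means of the marker lists were 3.66 to 4.49 for adipocytes (9 assays), 4.50 to 5.63 for stroma and smooth muscle (10), 6.74 to 7.64 for endothelium (2) and 4.07 to 5.09 for erythroid cells (2). They were -1.93 to -0.35 for striated muscle (4) and -2.09 to 0.70 for the liver marker miR-122-5p. Lists of different assays were not ranked against each other, since assay efficiencies are not known.

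The 5 guide strands were among the earlier assays of the fat pad. MiR-125b-5p had a mean level of 6.40 over the 12 pools, rank 26 of 504. MiR-99a-5p followed at 6.04 (rank 30), miR-125a-5p at 5.61 (rank 41), miR-100-5p at 4.89 (rank 58) and miR-99b-5p at 4.01 (rank 77). Efficiencies of the assays were not given, so this is an order of Ct and need not be one of amounts. Neighbours in it overlapped over the pools: miR-125b-5p ranged from 5.33 to 7.38, miR-99a-5p from 5.50 to 6.72, miR-125a-5p from 5.03 to 6.21, miR-100-5p from 4.30 to 5.44 and miR-99b-5p from 3.45 to 6.09.

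The opposite arms came later. MiR-99b-3p had a mean level of 1.35 (rank 180), and within a pool it followed miR-99b-5p by 2.67 ± 0.78 cycles (SD over 12 pools). MiR-100-3p had -6.79 (rank 484, Ct 30.73 to 32.53) and followed miR-100-5p by 11.68 ± 0.70 cycles. For comparison, miR-125a-3p followed miR-125a-5p by 3.35 ± 0.49 cycles and miR-125b-2-3p followed miR-125b-5p by 6.88 ± 0.73 cycles. MiR-125b-2-3p comes from Mir125b-2, whereas miR-125b-5p also comes from Mir125b-1, so the latter gap is not between the arms of a single hairpin.

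**Figure D1:**
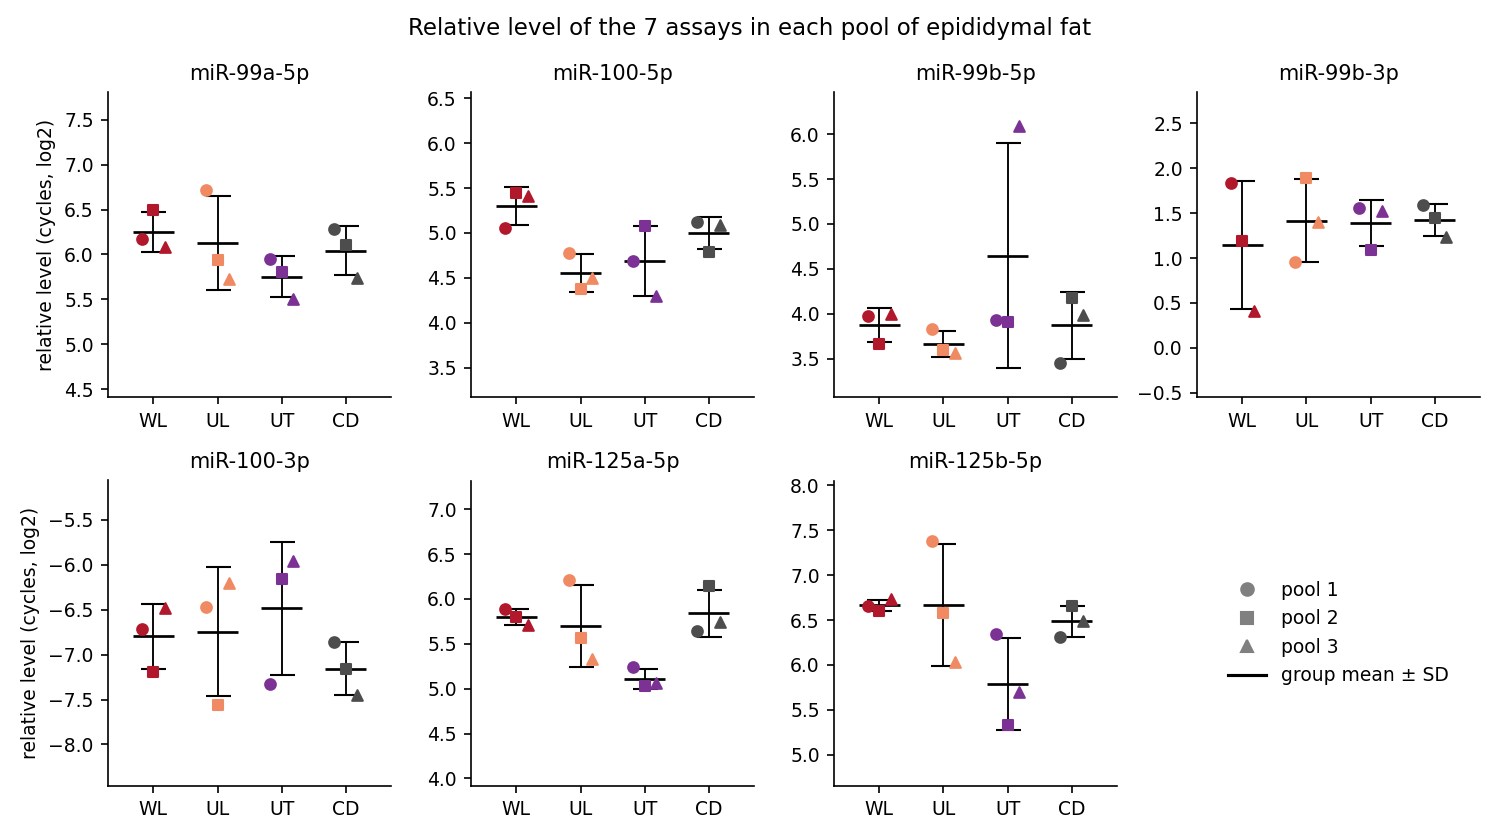
Relative level (cycles, log2 scale; each panel spans 3.4 cycles) of the 7 assays in WL, UL, UT and CD, with a symbol per pool and bars for the group mean ± SD (n = 3 each). MiR-125a-5p is lower in all 3 UT pools than in every other pool, and miR-99b-5p stands at 6.09 in UT 3 and at 4.17 or less elsewhere. How many of all microRNAs separate the UT pools from every other pool was not counted.

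Diet exposure was compared in a single limma model of the 4 groups, fitted over all 504 microRNAs with Benjamini-Hochberg adjustment and a threshold of 0.05. Against CD, 0 of the 7 passed in WL, 0 in UL and 0 in UT, where over all microRNAs 0.595%, 0.595% and 1.39% passed. Between the exposed groups 0 of the 7 passed, with 0.0% of all microRNAs passing in each of these comparisons. The F test over the 4 groups called 0 of the 7 and 0.397% of all. At an unadjusted p under 0.05 the count was 0 of the 7 in WL against CD (7.14% of all), 0 in UL against CD (2.78%) and 1 in UT against CD (10.1%). It was 1 in WL against UL (5.36%), 2 in WL against UT (15.7%), 1 in UL against UT (7.94%) and 0 in the F test (9.92%). The 95% intervals of the fold changes against CD lay between -1.52 and 1.89 on the log2 scale over the 7, and the 3 pools per group limit their precision. The 3 comparisons share the CD pools.

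**Figure D2:**
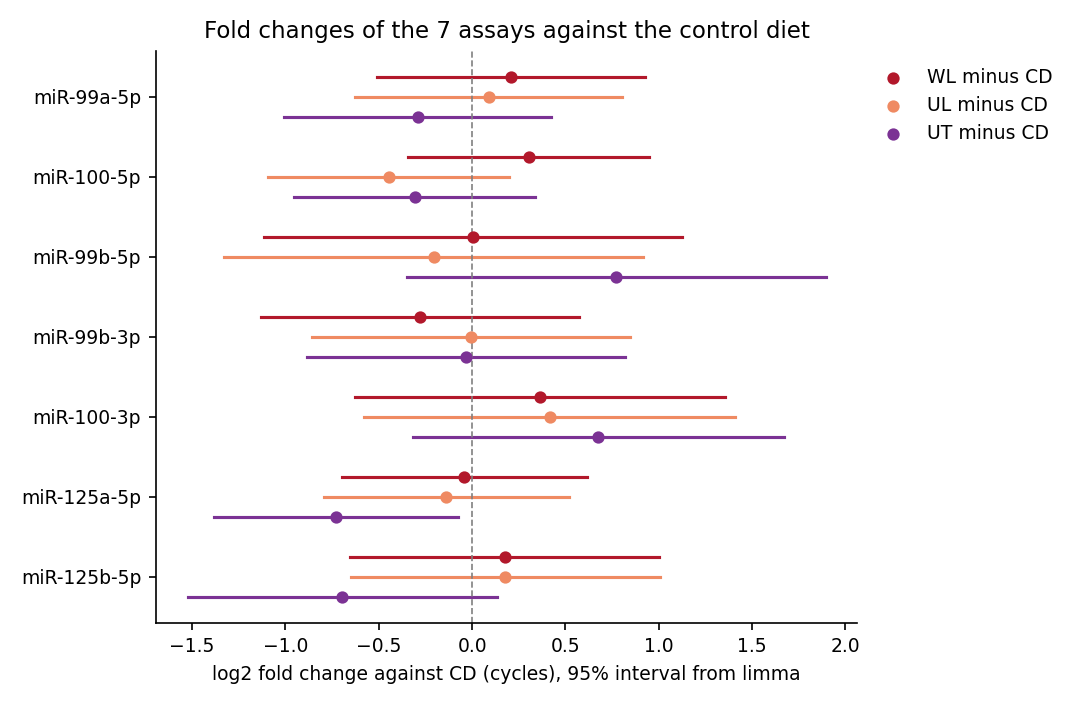
Log2 fold changes against CD (cycles) of the 7 assays for WL, UL and UT, with 95% intervals from the limma fit over 12 pools. The interval of miR-125a-5p in UT (-1.39 to -0.07) lies below 0; every other interval includes 0.

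Of the guides of the miR-99 and miR-100 family, which repress mTOR, miR-99a-5p had the highest level. It stood at 6.17, 6.50 and 6.08 in the WL pools, at 6.72, 5.94 and 5.73 in the UL pools, at 5.95, 5.80 and 5.50 in the UT pools, and at 6.28, 6.11 and 5.74 in the CD pools. These ranges overlap, and its log2 differences from CD were 0.21 for WL, 0.09 for UL and -0.29 for UT (SE 0.33; limma adjusted p = 0.978, 0.995 and 0.812).

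MiR-100-5p, a single base from miR-99a-5p, had its lowest group mean in UL and its highest in WL. It stood at 5.06, 5.44 and 5.41 in the WL pools, at 4.78, 4.37 and 4.50 in the UL pools, at 4.69, 5.08 and 4.30 in the UT pools, and at 5.12, 4.79 and 5.09 in the CD pools. Every WL pool lay above every UL pool, and every UL pool lay below every CD pool (highest 4.78 in UL, lowest 4.79 in CD). The log2 fold change was 0.75 for WL against UL (SE 0.29, 95% interval 0.11 to 1.40, limma adjusted p = 0.805, unadjusted p = 0.0263). Against CD it was 0.30 in WL, -0.45 in UL and -0.31 in UT (SE 0.29; adjusted p = 0.956, 0.995 and 0.81). Its within-group SD of 0.26 cycles was among the smallest: 3.2% of all microRNAs had a smaller one.

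MiR-99b-5p, the guide from chromosome 17, stood at 3.97, 3.66 and 4.00 in the WL pools, at 3.83, 3.60 and 3.56 in the UL pools, at 3.93, 3.91 and 6.09 in the UT pools, and at 3.45, 4.17 and 3.99 in the CD pools. The value of UT 3 lay 1.92 cycles above the next highest pool, and 9 of the 466 complete microRNAs (1.93%) stood at least as far above all other pools in UT 3. The log2 fold change in UT against CD was 0.77 (SE 0.51, 95% interval -0.35 to 1.89, limma adjusted p = 0.658), and 0.05 without UT 3. In WL and UL it was 0.00 and -0.21 (adjusted p = 0.998 and 0.995).

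The opposite arms showed no call either. For miR-99b-3p the log2 difference from CD was -0.28 with WL, -0.01 with UL and -0.03 with UT (SE 0.39; limma adjusted p = 0.968, 0.999 and 1). It did not share the high value of its partner arm: in UT 3 it stood at 1.52, against 1.56 and 1.09 in the other UT pools. The WL pools averaged -6.79 ± 0.36 for miR-100-3p, the UL pools -6.74 ± 0.72, the UT pools -6.48 ± 0.74 and the CD pools -7.16 ± 0.29 (SD over 3 pools). Its log2 differences from CD of 0.36 for WL, 0.42 for UL and 0.68 for UT (SE 0.45; adjusted p = 0.956, 0.995 and 0.66) rest on Ct values past 30. In UT the value was 0.08 with quantile normalization, 1.42 scaled to RNU-43, 1.10 without UT 1 and 0.41 without UT 3. Scaled to U6-snRNA, which has no value in UT 1 and so leaves that pool out, it was 1.06.

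The 2 miR-125 guides gave the lowest fold changes of the members against CD, in UT. MiR-125a-5p stood at 5.89, 5.80 and 5.71 in the WL pools, at 6.21, 5.56 and 5.33 in the UL pools, at 5.24, 5.03 and 5.06 in the UT pools, and at 5.64, 6.14 and 5.74 in the CD pools. All UT pools lay below all 9 others, but the share of all microRNAs that separate UT in this way was not counted. Between UT and CD alone, ranges did not overlap for 14.0% of all microRNAs. The limma F test of miR-125a-5p over the 4 groups gave an adjusted p of 0.619. The log2 fold change in UT against CD was -0.73 (SE 0.30, 95% interval -1.39 to -0.07), with an unadjusted p = 0.0323 and a limma adjusted p = 0.435. In WL and UL it was -0.04 and -0.14 (adjusted p = 0.994 and 0.995). Set against UT, the log2 fold change was 0.69 in WL (unadjusted p = 0.0412, adjusted p = 0.291) and 0.59 in UL (unadjusted p = 0.073, adjusted p = 0.657).

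MiR-125b-5p also had its lowest group mean in UT. It stood at 6.66, 6.60 and 6.73 in the WL pools, at 7.38, 6.58 and 6.03 in the UL pools, at 6.34, 5.33 and 5.70 in the UT pools, and at 6.31, 6.66 and 6.49 in the CD pools. UT 1 lay within the range of the CD pools, so these groups overlap. The log2 fold change in UT against CD was -0.70 (SE 0.38, 95% interval -1.52 to 0.13, limma adjusted p = 0.599), and it was 0.18 in WL and 0.18 in UL (adjusted p = 0.978 and 0.995). Against UT it was 0.87 in WL (unadjusted p = 0.0408, adjusted p = 0.291) and 0.87 in UL (unadjusted p = 0.0403, adjusted p = 0.601). For miR-351-5p, which shares the miR-125 seed, group means were -0.81 ± 1.14 (WL), -0.03 ± 0.23 (UL), -1.10 ± 0.33 (UT) and -1.58 ± 0.04 (CD). In WL, pool 3 stood at -2.13 and the others at -0.15. Its log2 fold change in UL against CD was 1.56 (95% interval 0.51 to 2.60, limma unadjusted p = 0.00721, adjusted p = 0.519). In WL and UT it was 0.77 and 0.48 (adjusted p = 0.782 and 0.81).

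The reference used for scaling shifts all microRNAs in UT together. Relative to the reference RNA RNU-43, whose own level was 6.37 to 6.96 in the UT pools and 7.13 to 7.73 in the CD pools, the median of all microRNAs shifted to 0.73 in UT, against -0.01 with the mean scaling. On that scale UT minus CD came to 0.01 for miR-125a-5p, 0.05 for miR-125b-5p, 0.43 for miR-100-5p and 0.45 for miR-99a-5p (log2; limma adjusted p = 0.985, 0.96, 0.434 and 0.516). Each of these 4 lay below that median of 0.73, but this only restates the scaling to the average microRNA. Whether RNU-43 was lower or the microRNAs as a whole were higher in UT cannot be told apart here. With the median microRNA, U6-snRNA, no scaling, quantile normalization or the deposited normalized values the sign stayed negative, between -0.88 and -0.51 for miR-125a-5p, -1.01 and -0.41 for miR-125b-5p, -0.46 and -0.09 for miR-100-5p, and -0.44 and -0.04 for miR-99a-5p. MiR-99b-5p (0.62 to 1.51) and miR-100-3p (0.08 to 1.42) stayed above 0 under these 5 and under RNU-43. U6-snRNA has no value in UT 1 and WL 3, so scaling to it also leaves these pools out. Of the stromal and smooth muscle list, which stands for other cells of the pad, 0 of 10 measured microRNAs lay above 0 in UT against CD, 0 passed, and the median log2 fold change was -0.58. Its mean per pool was 4.50 to 4.78 in UT and 5.00 to 5.43 in CD. The adipocyte list averaged 3.66 to 3.96 in the UT pools and 3.91 to 4.08 in the CD pools, and the leukocyte list 1.06 to 1.76 in UT and 1.56 to 2.31 in CD. Above 0 in UT against CD lay 2 of 9 adipocyte and 2 of 6 leukocyte microRNAs. Of the epithelial list 0 of 8 lay above 0 (median -2.16), with pool means of 0.41 to 1.87 in UT and 1.53 to 3.48 in CD. The erythroid list averaged 4.27 to 5.09 in UT and 4.07 to 4.93 in CD (median log2 fold change 0.18). The endothelial list averaged 6.90 to 7.54 in UT and 6.74 to 7.64 in CD (median 0.09, miR-126a-3p -1.19 and miR-126a-5p 1.36). The median of the striated muscle list was -0.07, and miR-122-5p had -0.42. The part of these shifts in the miR-125 values was not tested.

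Counted over the 7, log2 fold changes lay above 0 for 5 in WL, 3 in UL and 2 in UT against CD, with medians of 0.18, -0.01 and -0.29, where the medians of all microRNAs were -0.06, -0.07 and -0.01. Ranges did not overlap for 0 of the 7 in WL against CD (11.0% of all microRNAs), 1 in UL against CD (miR-100-5p, 7.88%) and 1 in UT against CD (miR-125a-5p, 14.0%). Between exposed groups they did not overlap for 1 of 7 in WL against UL (miR-100-5p, 9.88%). The count was 3 in WL against UT (miR-99a-5p, miR-125a-5p and miR-125b-5p, all higher in WL, 19.3%) and 2 in UL against UT (miR-125a-5p higher, miR-99b-5p lower in UL, 13.3%).

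Differences between 2 assays in the same pool need no scaling, so they set the assays of cluster mates directly against each other. Some mature sequences are also encoded outside the cluster, as stated below. For 10 pairs the difference was tested over the 4 groups by an exact permutation test of the F statistic over all 369600 regroupings of the pools, with Benjamini-Hochberg adjustment over the 10. MiR-99b-5p and let-7e-5p, whose hairpins lie 94 bases apart, gave the smallest p. The level of miR-99b-5p minus that of let-7e-5p was -3.45, -3.69 and -4.60 cycles in the WL pools, -3.75, -3.40 and -2.91 in the UL pools, -2.69, -2.84 and -1.32 in the UT pools, and -3.21, -3.25 and -3.25 in the CD pools. All UT pools lay above all other pools, but how many pairs of all microRNAs separate UT in this way was not counted. The exact permutation p was 0.00461 (adjusted p = 0.0461). This call rests on single pools: the adjusted p was 0.283 without UT 3, 0.255 without WL 3, where let-7e-5p stood at 8.60, and above 0.05 without each other pool except UT 2 (0.0377).

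The other mate of that cluster is miR-125a-5p. The level of miR-99b-5p minus that of miR-125a-5p was -1.92, -2.14 and -1.71 cycles in the WL pools, -2.38, -1.96 and -1.77 in the UL pools, -1.31, -1.12 and 1.03 in the UT pools, and -2.19, -1.97 and -1.75 in the CD pools. All UT pools lay above all others here too, but the difference missed the threshold. Both differences hold miR-99b-5p and so share its value of 6.09 in UT 3. The share of all pairs that separate UT in this way was not counted. The exact permutation p was 0.0147 (adjusted p = 0.0734), with 0.0299 (adjusted p = 0.283) without UT 3. The arms of Mir99b differed by 2.73 ± 0.76 cycles in WL, 2.25 ± 0.58 in UL, 3.25 ± 1.16 in UT and 2.45 ± 0.50 in CD (exact permutation p = 0.485, adjusted p = 0.485).

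The other 7 pairs, cluster mates on chromosomes 16 and 9 and family members of different clusters, did not pass. MiR-99a-5p minus its mate let-7c-5p, which Mirlet7c-2 on chromosome 15 also encodes, was -2.26 ± 0.40 cycles in WL, -1.85 ± 0.62 in UL, -2.62 ± 0.49 in UT and -2.44 ± 0.55 in CD (exact permutation p = 0.382, adjusted p = 0.457). MiR-100-5p minus its mate let-7a-5p, which other loci also encode, was -2.55 ± 0.20 cycles in WL, -2.96 ± 0.21 in UL, -2.78 ± 0.39 in UT and -2.72 ± 0.24 in CD (exact permutation p = 0.361, adjusted p = 0.457). Of the same family but another cluster, miR-99a-5p came earlier than miR-100-5p by 0.95 ± 0.24 cycles in WL, 1.58 ± 0.36 in UL, 1.06 ± 0.30 in UT and 1.04 ± 0.35 in CD (exact permutation p = 0.138, adjusted p = 0.379). MiR-100-5p minus its mate miR-125b-5p, which the cluster on chromosome 16 also encodes, was -1.36 ± 0.22 cycles in WL, -2.11 ± 0.54 in UL, -1.10 ± 0.75 in UT and -1.49 ± 0.35 in CD (exact permutation p = 0.154, adjusted p = 0.379). MiR-125b-5p came earlier than miR-125a-5p by 0.86 ± 0.14 cycles in WL, 0.96 ± 0.24 in UL, 0.68 ± 0.40 in UT and 0.65 ± 0.12 in CD (exact permutation p = 0.411, adjusted p = 0.457). The remaining pairs, miR-99a-5p with miR-99b-5p and miR-99a-5p with miR-125b-5p, had adjusted p of 0.379 and 0.457.

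**Figure D3:**
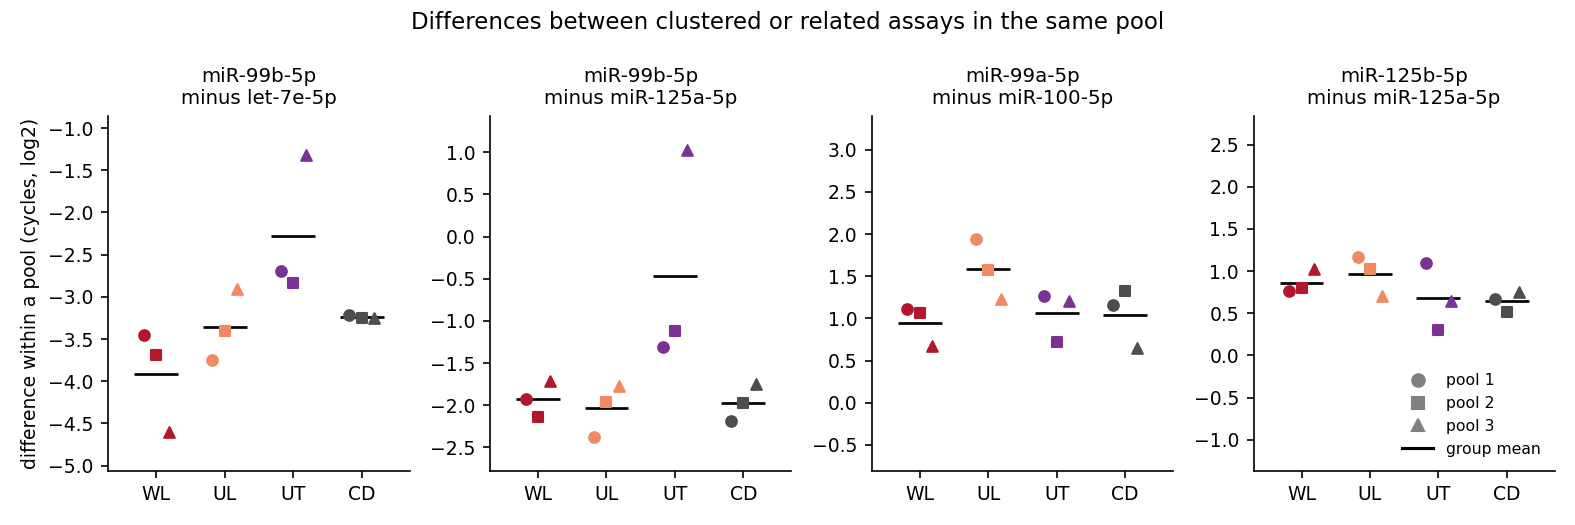
Differences in relative level (cycles, log2) between 2 assays of the same pool in WL, UL, UT and CD, with a symbol per pool and a line at the group mean; each panel spans 4.2 cycles. UT 3 stands highest for both differences with miR-99b-5p, and miR-125b-5p minus miR-125a-5p stays between 0.30 and 1.17 in all 12 pools.

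Over the 12 pools the highest correlation among the members was that of miR-125a-5p and miR-125b-5p. These, of which the first is encoded on chromosome 17 and the other on chromosomes 9 and 16, had a Pearson r of 0.89 (Spearman rho 0.87), and each was the closest of the 465 other complete microRNAs to its partner. With group means subtracted r was 0.84. MiR-99a-5p had r = 0.75 with each of them (rho 0.73 with miR-125a-5p and 0.69 with miR-125b-5p). MiR-100-5p and miR-99a-5p had r = 0.47 (rho 0.51), and miR-100-5p had r = 0.21 with miR-125b-5p. The cluster mates miR-99b-5p and miR-125a-5p had r = -0.35 with rho 0.08, and the arms miR-99b-5p and miR-99b-3p had r = 0.04. The pools share their scaling and depth of template, so these values describe the pools.

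The microRNAs closest to each guide were named by the highest r over the 12 pools. For miR-99a-5p they were miR-30b-5p (r = 0.87), miR-148b-3p (0.84) and miR-15a-5p (0.84). For miR-125a-5p they were miR-125b-5p, miR-130b-3p (0.87) and miR-15a-5p (0.83), and for miR-125b-5p they were miR-125a-5p, miR-148b-3p (0.85) and miR-15a-5p (0.83). For miR-100-5p they were miR-505-3p (0.82), miR-380-5p (0.81) and miR-804 (0.81). For miR-99b-5p they were miR-431 (0.91), miR-500-3p (0.91) and miR-1941-3p (0.89), with rho of only 0.30, 0.30 and 0.20.

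**Figure D4:**
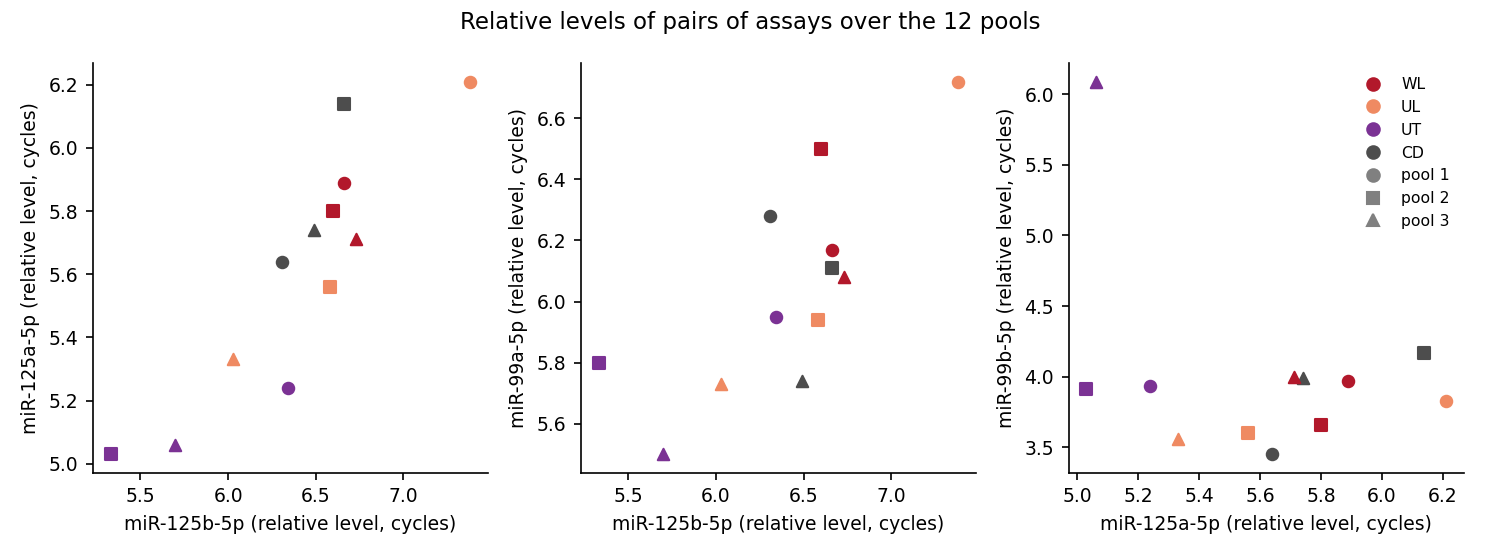
Relative levels (cycles, log2) of miR-125b-5p against miR-125a-5p, miR-125b-5p against miR-99a-5p, and miR-125a-5p against miR-99b-5p over the 12 pools, coloured by group. The miR-125 guides run together (r = 0.89), whereas miR-99b-5p is flat but for UT 3 (rho 0.08 with miR-125a-5p).

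Other microRNAs reported to act on the mTOR network, in mouse or human cells, were taken from a list of 33, of which 32 were measured. In each comparison 0 of the 32 passed in either direction. Against CD their median was -0.11 (WL), -0.05 (UL) and -0.07 (UT) on the log2 scale, with 14, 14 and 13 of the 32 above 0. The 4 with the highest mean level were miR-21a-5p, miR-16-5p, miR-145a-5p and miR-199a-3p, which represses mTOR. MiR-21a-5p differed from CD by 0.59 with WL, 0.10 with UL and 0.12 with UT (log2; limma adjusted p = 0.873, 0.995 and 0.954), and miR-199a-3p had -0.69, -0.20 and -0.50 (adjusted p = 0.762, 0.995 and 0.715). MiR-16-5p had 0.48, 0.19 and 0.42, and miR-145a-5p had 0.08, -0.48 and -0.31, with adjusted p of 0.81 or more.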

How the data were processed

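Epididymal fat RNA from 12 pools, 3 in each of WL, UL, UT and CD, was assayed by RT-PCR. Per the file headers, the authors deposited Ct values before normalization, and these were tested here. The deposited normalized values are ratios (2 to the power of minus delta Ct per the file headers), but within each pool Ct less log2 of the ratio is constant (24.74 to 25.46, departing by at most 0.005), so the ratios grow with Ct. They were used with their sign turned, as an alternative only. The sources used here do not give the PCR platform or threshold rule. The authors' deposited fold changes were not used.

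Of 507 rows 1 repeated another and was dropped, leaving 504 microRNAs and 2 reference RNAs. A filter requiring a Ct under 35 in 3 or more pools removed none of the 504 microRNAs. Relative levels were tested with limma 3.58.1 (R 4.3.3; lmFit, eBayes; prior degrees of freedom 3.36), two-sided, by group means over all 12 pools. Python 3.11.15 ran the exact permutation tests. Scripts were tested on simulated data. Pools were treated as independent: the labels do not say how mice or litters fell into pools, so p-values measure the spread between pools. Same-numbered pools of different groups correlated in their deviations by -0.27 to 0.26 (18 pairs, median 0.04). Differently numbered pools did so by -0.35 to 0.31 (36 pairs, median 0.00). This gives no sign that numbers pair pools but cannot exclude it, so the main model used no pairing. Members and lists were chosen with earlier results of these data known. Named microRNAs are the members, their opposite arms, cluster let-7s, sharers of their seed, the 4 mTOR-list microRNAs of highest level and the 3 closest to each guide.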

Additional observations from a re-analysis of the deposited data

How the results depend on the processing

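The count of members that passed was 0 in all 6 comparisons and in the F test under each of 26 other settings that gave a value. It was out of 7, except with only Ct under 30, where miR-100-3p drops out and it was out of 6. The F test was not run with only the groups of a contrast. The setting with no filter repeats the main one, since the filter removed no microRNA. The smallest limma adjusted p of a member in any setting was 0.151 (miR-100-3p, UT against CD, scaled to RNU-43). With the pool number as a replicate block 0 of the 7 passed in each comparison. Without UT 2 and WL 3 together, chosen after seeing the data, it was 0 as well. Over all microRNAs the number called against CD, across these settings, ran from 0 to 6 in WL (3 as reported), 0 to 6 in UL (3) and 1 to 15 in UT (7). It ran from 0 to 1 in WL against UL (0), 0 to 13 in WL against UT (0), 0 to 11 in UL against UT (0) and 0 to 15 in the F test (2), with the highest of each of these last 3 reached without UT 2 and WL 3 together.

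Of 26 fold changes followed, 21 against CD and 5 between exposed groups (miR-100-5p in WL against UL, and the miR-125 guides in WL and UL against UT), 11 kept their direction in all settings, and 41 of 673 values had the opposite sign; none of these was called, and the cause was not tested. Scaled to RNU-43, those of the 26 that turned were, in UT against CD, 0.43 (miR-100-5p), 0.01 (miR-125a-5p), 0.05 (miR-125b-5p), 0.45 (miR-99a-5p) and 0.71 (miR-99b-3p). In UL against CD they were 0.23 (miR-125a-5p), 0.36 (miR-99b-3p) and 0.16 (miR-99b-5p), and in WL against UT -0.04 (miR-125a-5p). Outside the 26, this scaling also turned miR-100-5p (-0.11) and miR-99a-5p (-0.23) in WL against UT, miR-125a-5p (-0.25), miR-99a-5p (-0.23) and miR-99b-5p (-0.14) in WL against UL, and miR-99b-3p (-0.35) in UL against UT. Scaled to U6-snRNA, which lacks UT 1 and WL 3, those of the 26 that turned were 0.26 (miR-125a-5p) and 0.34 (miR-99b-3p) in WL and 0.00 (miR-99b-3p) in UL. Outside the 26, it turned miR-100-3p (0.04), miR-125b-5p (0.21) and miR-99b-3p (0.34) in WL against UL. In WL against UT it turned miR-99b-3p (0.50). For the other settings only turns among the 26 are given. MiR-99b-5p in WL was -0.04 scaled to the median microRNA, -0.10 with no scaling, -0.12 with quantile normalization, -0.08 with the deposited normalized values and -0.06 without UT 2 and WL 3. With no scaling miR-99a-5p in UL was -0.02 and miR-99b-3p in UT 0.04. With quantile normalization miR-100-3p in UL was -0.11 and miR-99b-3p in UT 0.02. Without UT 2 and WL 3, miR-125a-5p in WL was 0.00, miR-99b-3p in WL 0.09 and miR-99b-3p in UT 0.11.

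Leaving out each pool in turn, the fold changes that turned ranged in WL from -0.14 to 0.11 (miR-125a-5p), -0.62 to 0.09 (miR-99b-3p) and -0.20 to 0.16 (miR-99b-5p). In UL they ranged from -0.39 to 0.05 (miR-125a-5p), -0.18 to 0.49 (miR-125b-5p), -0.21 to 0.29 (miR-99a-5p) and -0.24 to 0.22 (miR-99b-3p), and in UT from -0.13 to 0.11 (miR-99b-3p). That of miR-125a-5p in UT stayed between -0.83 and -0.58. The exact permutation p of miR-99b-5p minus let-7e-5p ranged from 0.00377 to 0.0567, and 1 of the 12 omissions kept its call. Of the 3 pools per group, each sets a large part of the spread, and SE of 0.29 to 0.51 limit the members' fold changes against CD.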
